A study of Mus musculus with 10 samples.

Results

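The immediate early genes Fos, Fosb, Jun, Junb, Egr1, Egr2, Egr3, Arc, Nr4a1 and Npas4 were examined in the cochlea of 12-month-old mtKeima mice, in NR-treated and non-treated animals. These 10 genes were taken by name from the 54532 genes counted in each library. The rule itself uses no measured value, but the genes were chosen with earlier results of these data known. All 10 passed the filter on low counts, which kept 18329 genes. The study gave nicotinamide riboside (NR), an NAD+ precursor, to mice that lose hearing with age, and compared the cochlear transcriptome with and without it. RNA was taken from the cochlea, which per the study's methods was dissected right after an auditory assessment. That assessment used ketamine and xylazine anesthesia and tone bursts, and their part in the levels below was not tested. Poly(A) RNA was sequenced as 1 library per mouse. NR was dissolved in the drinking water of 5 mice at 7 mg/ml (24 mM) from 2 months of age, for 10 months in all, and 5 non-treated controls had plain water. All 10 mice carried the mtKeima transgene, which makes a pH-sensitive fluorescent protein in mitochondria, on a mixed genetic background, and the study's methods give them as wild type for Cdh23 and Nnt. The labels name the mice as female, whereas the study's methods name male mice. The Y-linked genes Ddx3y, Uty, Kdm5d and Eif2s3y had 444 to 1928 reads in every library, and Xist had 2 to 8 reads.

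Immediate early genes are switched on within minutes of a stimulus, without the need for new protein. Calcium and mitogen-activated kinase signals act on transcription factors that already sit at these genes, among them CREB at cAMP response elements and SRF with its partners at serum response elements. Most of the products are themselves transcription factors, which then act on a later wave of genes. In neurons they are widely used as marks of recent activity, while in glia, fibroblasts and immune cells they follow growth factors, injury and tissue handling, so that in a whole cochlea several cell types contribute to each level.

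The NR-treated and non-treated mice overlapped for all 10 genes, and for 8 of them the fitted difference lay between -0.37 and 0.11 on the log2 scale with a 95% interval that spanned 0. The lower level of Nr4a1 in NR-treated mice, 25.3 ± 9.95 CPM (read counts scaled to library size, SD, n = 5) against 48.2 ± 26.2 CPM (SD, n = 5), was the difference that passed an unadjusted p of 0.05. Fosb had a still larger fitted difference, which rested on 1 non-treated mouse. After adjustment over all 18329 genes, 0 of the 10 passed in edgeR's quasi-likelihood test. The spread among mice of the same treatment was large for most of these genes. Of all pairs among them, Fos with Junb and Egr1 with Nr4a1 had the highest correlations over the 10 mice, each with a permutation p adjusted over all pairs of 0.061.

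The sequence just before the start site of such genes can hold elements through which they respond. RefSeq start sites on GRCm38.p6 were at hand for 7 of the 10 genes (Fos, Fosb, Jun, Junb, Egr2, Nr4a1 and Npas4), and the 250 bases before each were searched on both strands. The core of the cAMP response element, TGACG, was found in 6 of these 7, all but Jun, whereas 17.9% of 27025 promoters, 1 per gene, held it. The full palindrome TGACGTCA, which contains that core, was found in 0 of the 7 and in 1.62% of all promoters. The CArG box bound by SRF was found in 1 of the 7, Egr2, and in 1.40% of all promoters. The AP-1 site TGANTCA was found in 0 of the 7 against 6.87% of all promoters, and the EGR site GCGTGGGCG in 0 of the 7 against 0.54%. A match is a run of letters, and binding was not measured. Sequence outside these 250 bases was not searched, so a missing match does not mean that a gene lacks the element. For Egr2, which has 5 RefSeq start sites, a match before any of them was counted, while the share over all promoters used 1 start site per gene. That share uses the first listed Egr2 start site, which has neither a TGACG nor a CArG match before it. The Egr2 matches counted here thus come from its other start sites and are not on the same measure as the shares. The windows of Fos, Fosb, Junb and Nr4a1 are shown because, among the 7 genes searched, these 4 have the lower fitted levels or the highest correlations described further on. They are written in the direction of transcription, and capitals mark TGACG or its reverse complement.
Fos, chr12:85473640-85473889, plus strand: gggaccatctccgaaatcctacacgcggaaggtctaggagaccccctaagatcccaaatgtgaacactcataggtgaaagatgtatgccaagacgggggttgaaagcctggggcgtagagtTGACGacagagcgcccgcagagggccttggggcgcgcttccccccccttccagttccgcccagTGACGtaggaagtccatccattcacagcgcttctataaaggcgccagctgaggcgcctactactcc
Fosb, chr7:19310046-19310295, minus strand: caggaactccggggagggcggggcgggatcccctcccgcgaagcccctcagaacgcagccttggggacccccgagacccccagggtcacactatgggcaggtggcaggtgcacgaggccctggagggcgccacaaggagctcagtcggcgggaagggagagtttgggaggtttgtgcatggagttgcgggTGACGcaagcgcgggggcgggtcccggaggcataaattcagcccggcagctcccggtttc
Junb, chr8:84978749-84978998, minus strand: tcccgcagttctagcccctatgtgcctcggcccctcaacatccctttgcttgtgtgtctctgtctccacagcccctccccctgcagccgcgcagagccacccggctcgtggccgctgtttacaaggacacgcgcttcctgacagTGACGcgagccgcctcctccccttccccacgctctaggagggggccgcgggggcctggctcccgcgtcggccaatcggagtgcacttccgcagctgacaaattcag
Nr4a1, chr15:101266596-101266845, plus strand: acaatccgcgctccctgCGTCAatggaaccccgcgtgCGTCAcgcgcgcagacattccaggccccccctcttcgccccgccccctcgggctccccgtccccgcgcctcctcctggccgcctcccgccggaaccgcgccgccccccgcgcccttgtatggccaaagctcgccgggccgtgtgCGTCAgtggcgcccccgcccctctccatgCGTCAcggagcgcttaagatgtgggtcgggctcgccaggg
In Fos the matches begin 129 and 66 bases before the start site, in Fosb 60 bases and in Junb 106 bases before it. Nr4a1 holds 4 matches, at 233, 213, 69 and 40 bases before the start site, all on the opposite strand to those in Fos, Fosb and Junb. The last 6 bases of the Fosb window belong to an exon in the GENCODE annotation, and the other 3 windows shown hold no exon. All 250 bases of the Npas4 window, which is not shown, lie in annotated exons, and so do 0 to 61 bases of the Egr2 windows. The Nr4a1 window lies inside the interval that the files give for the gene, between its exons.

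The abundance of the 10 genes was compared per length, as TPM, in which counts are divided by gene length and then scaled to a common total. In non-treated mice, Jun stood at 72.0 ± 7.15 TPM (SD, n = 5), and Junb at 50.4 ± 7.62 TPM (SD, n = 5). Nr4a1 followed at 42.0 ± 23.7 TPM (SD, n = 5), Egr2 at 29.7 ± 5.82 TPM (SD, n = 5) and Egr1 at 21.6 ± 8.16 TPM (SD, n = 5). Fos was well below its partners at 9.20 ± 1.501 TPM (SD, n = 5). The lowest 4 were Egr3 at 4.44 ± 1.06 TPM, Arc at 3.94 ± 1.23 TPM, Fosb at 2.25 ± 3.26 TPM and Npas4 at 2.24 ± 1.21 TPM (SD, n = 5 each). In this order Jun lay above Junb and Egr1 above Fos by more than the sum of their SDs, and so did Fos above Egr3. Junb lay above Egr2 by the same measure, but Nr4a1 could not be placed against Jun, Junb, Egr2 or Egr1 within its spread. Nor could Egr2 and Egr1 be ordered, or the lowest 4 genes among themselves. In NR-treated mice the order was the same but for Egr2, at 32.4 ± 4.31 TPM (SD, n = 5), which lay above Nr4a1, at 22.2 ± 8.98 TPM (SD, n = 5), and but for Npas4, which lay above Fosb.

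**Figure D1:**
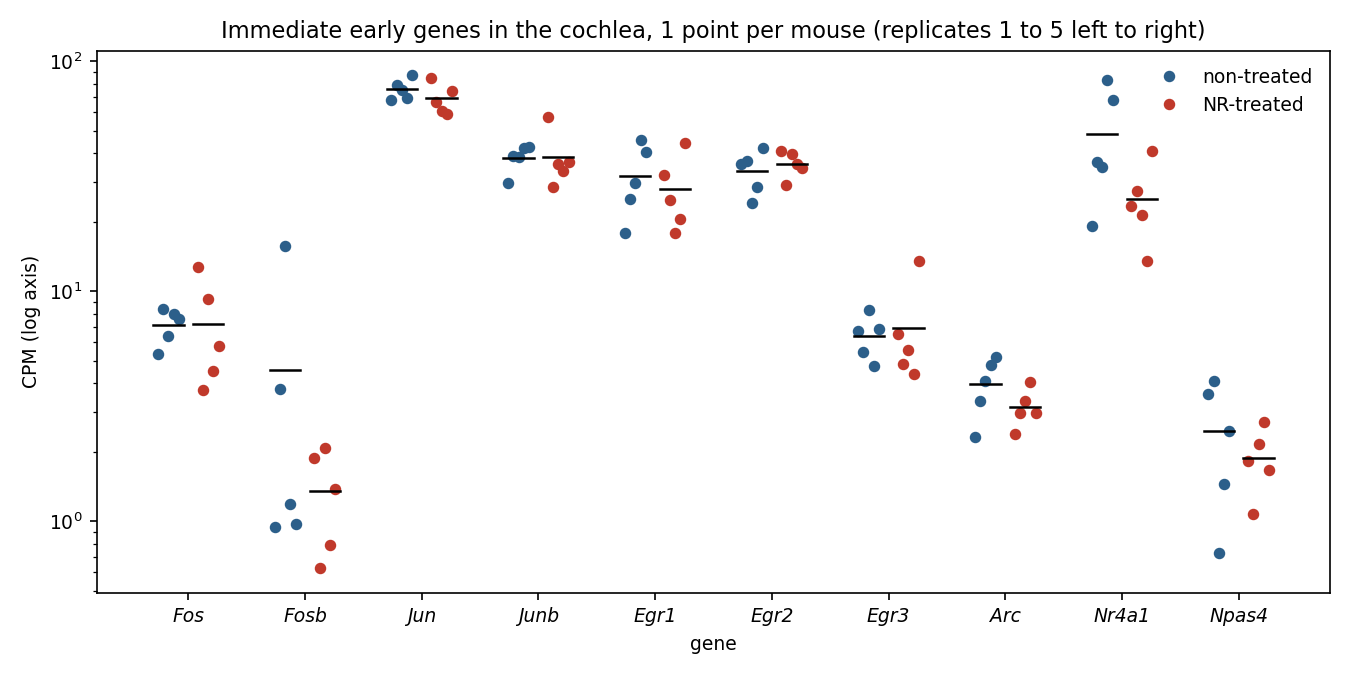
CPM of the 10 immediate early genes on a log axis, with 1 point per mouse (replicates 1 to 5 from left to right within each group, non-treated in blue and NR-treated in red) and a black line at each group's mean. The groups overlap for every gene, Nr4a1 is lower in NR-treated mice on average (25.3 against 48.2 CPM), and single mice stand apart for Fosb, Junb and Egr3.

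Fos encodes the leucine zipper protein that pairs with a JUN protein to form the AP-1 transcription factor (ENSMUSG00000021250, chr12:85473890-85477273, plus strand, GRCm38). Its level in NR-treated mice 1 to 5 was 12.7, 3.71, 9.26, 4.498 and 5.79 CPM, and in non-treated mice 1 to 5 it was 5.36, 8.40, 6.39, 7.94 and 7.62 CPM. The highest and the lowest of the 10 mice were both NR-treated, numbers 1 and 2, and the non-treated mice lay between them. The means were 7.20 ± 3.75 CPM (SD, n = 5) with NR and 7.14 ± 1.24 CPM (SD, n = 5) without. The log2 fold change, NR-treated minus non-treated, was 0.01 with a standard error of 0.31 and a 95% interval from -0.67 to 0.69 (edgeR adjusted p = 0.994). These values rest on 83 to 264 reads per mouse.

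Fosb, a relative of Fos whose truncated form accumulates on repeated stimulation of neurons, was low in most mice (ENSMUSG00000003545, chr7:19302696-19310051, minus strand). The 5 NR-treated mice, in order, had 1.88, 0.63, 2.08, 0.79 and 1.39 CPM, and non-treated mice had 0.94, 3.77, 15.8, 1.19 and 0.98 CPM. Non-treated mouse 3, with 391 reads, stood far above the other 9 mice, which had 14 to 84 reads, and the other non-treated mice lay within or near the range of the NR-treated mice. Its fitted log2 fold change was -1.75 with a standard error of 0.80 and a 95% interval from -3.53 to 0.02 (edgeR unadjusted p = 0.0518, adjusted p = 0.517). Without non-treated mouse 3 it was -0.34 (edgeR unadjusted p = 0.513), and without non-treated mouse 1, 4 or 5 it was -2.02, -2.01 or -2.01 with an unadjusted p of 0.0266, 0.0311 or 0.0276 in edgeR.

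Jun, the main DNA-binding partner of FOS in AP-1, was the most abundant and the least variable of the 10 (ENSMUSG00000052684, chr4:95049034-95052222, minus strand). NR-treated mice 1 to 5 had 84.2, 66.4, 60.8, 59.0 and 74.5 CPM, and non-treated mice 68.1, 78.9, 75.1, 69.1 and 86.8 CPM. The lowest 3 mice were NR-treated, but NR-treated mouse 1 was the second highest of all. This gave a log2 fold change of -0.13 with a standard error of 0.10 and a 95% interval from -0.36 to 0.10 (edgeR adjusted p = 0.692). Jun overlaps an antisense transcript, Junos, over 689 bases, and the counting took no account of strand, so that reads there cannot be assigned. Junos itself had 49 to 79 reads, against 1287 to 1869 for Jun.

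Junb, a JUN protein that in many settings restrains Jun, differed little in its group means (ENSMUSG00000052837, chr8:84974484-84978718, minus strand). The 5 NR-treated mice, in order, had 57.1, 28.3, 35.9, 33.5 and 36.4 CPM, and non-treated mice 29.4, 38.7, 38.4, 41.9 and 42.2 CPM. NR-treated mouse 1 was the highest and NR-treated mouse 2 the lowest, as for Fos, and the means were 38.2 ± 11.03 CPM with NR and 38.1 ± 5.17 CPM without (SD, n = 5 each). The log2 fold change was 0.00 with a standard error of 0.17 and a 95% interval from -0.38 to 0.38 (edgeR adjusted p = 0.997). Its interval in the files shares 351 bases with Prdx2 on the opposite strand, a gene with 7641 to 12125 reads. Whether this overlap raises or lowers the Junb count was not tested.

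Egr1 encodes a zinc finger transcription factor of the early growth response family (ENSMUSG00000038418, chr18:34859823-34864984, plus strand). NR-treated mice 1 to 5 had 32.1, 24.8, 17.96, 20.7 and 44.2 CPM, and non-treated mice 17.9, 25.3, 29.5, 45.5 and 40.5 CPM. NR-treated mouse 5 was close to the highest non-treated mouse and NR-treated mouse 3 to the lowest, so the groups covered the same range. Its fitted log2 fold change was -0.19 with a standard error of 0.29 and a 95% interval from -0.82 to 0.44 (edgeR adjusted p = 0.841).

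Egr2, also known as Krox20, drives the myelin program of Schwann cells, which wrap the auditory nerve fibers in the cochlea (ENSMUSG00000037868, chr10:67535475-67542188, plus strand). The 5 NR-treated mice, in order, had 40.9, 28.9, 39.5, 35.9 and 34.5 CPM, and non-treated mice 35.8, 36.7, 24.2, 28.4 and 42.2 CPM. The lowest 2 were non-treated mice 3 and 4 and the highest was non-treated mouse 5, so the NR-treated mice lay inside the non-treated range. This gave a log2 fold change of 0.10 with a standard error of 0.15 and a 95% interval from -0.22 to 0.43 (edgeR adjusted p = 0.825). Of 8 Schwann cell markers, 0 were higher and 1, Sox10, was lower at an unadjusted p of 0.05, at a median log2 fold change of 0.11, and Mbp, the most abundant, stood at 1925 ± 261 CPM with NR and 1797 ± 250 CPM without (SD, n = 5 each).

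Egr3 acts downstream of Egr1 in several tissues and is needed for muscle spindles (ENSMUSG00000033730, chr14:70077203-70082614, plus strand). NR-treated mice 1 to 5 had 6.51, 4.83, 5.58, 4.37 and 13.5 CPM, and non-treated mice 6.70, 5.48, 8.34, 4.72 and 6.87 CPM. NR-treated mouse 5 stood above the other 9, and the lowest of all was NR-treated mouse 4. The log2 fold change was 0.11 with a standard error of 0.30 and a 95% interval from -0.55 to 0.77 (edgeR adjusted p = 0.919). It was -0.26 without NR-treated mouse 5.

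Arc, a synaptic protein that takes part in the removal of AMPA receptors, is not a transcription factor (ENSMUSG00000022602, chr15:74669083-74672570, minus strand). The 5 NR-treated mice, in order, had 2.41, 2.95, 3.33, 4.02 and 2.95 CPM, and non-treated mice 2.33, 3.32, 4.09, 4.76 and 5.20 CPM. The highest 3 were non-treated, but so was the lowest. Its fitted log2 fold change was -0.33 with a standard error of 0.22 and a 95% interval from -0.82 to 0.16 (edgeR adjusted p = 0.654). Without non-treated mouse 1 it was -0.46 (edgeR unadjusted p = 0.0338), and without non-treated mouse 5 it was -0.21. With each mouse left out in turn, the edgeR unadjusted p of Arc ran from 0.0338 to 0.377.

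Npas4, a transcription factor known for its dependence on calcium influx in neurons, was at the low end (ENSMUSG00000045903, chr19:4984355-4989971, minus strand). NR-treated mice 1 to 5 had 1.83, 1.07, 2.16, 2.71 and 1.68 CPM, and non-treated mice 3.57, 4.09, 0.73, 1.46 and 2.46 CPM. Non-treated mice 1 and 2 were the highest of all and non-treated mouse 3 the lowest, and the NR-treated mice lay between. This gave a log2 fold change of -0.37 with a standard error of 0.42 and a 95% interval from -1.30 to 0.55 (edgeR adjusted p = 0.781). It was -0.60 without non-treated mouse 3 and -0.10 without non-treated mouse 2. Without both non-treated mice 3 and 4, a subset chosen after seeing the data, it was -0.83 (edgeR unadjusted p = 0.0202, adjusted p = 0.404). With 18 to 91 reads per mouse, counting error alone is large here.

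Nr4a1, also called Nur77, is an orphan nuclear receptor that is induced by calcium and cAMP (ENSMUSG00000023034, chr15:101254269-101274795, plus strand). The 5 NR-treated mice, in order, had 23.5, 27.2, 21.5, 13.5 and 40.7 CPM, and non-treated mice had 19.2, 36.5, 34.8, 82.9 and 67.6 CPM. Non-treated mice 4 and 5 were above all the others, NR-treated mouse 4 was the lowest, and non-treated mouse 1 lay among the NR-treated mice. The log2 fold change was -0.93 with a standard error of 0.39 and a 95% interval from -1.78 to -0.09 (edgeR unadjusted p = 0.0335, adjusted p = 0.483). It was the 1 member of the 10 at an unadjusted p of 0.05 in edgeR, whereas 9.71% of all 18329 tested genes had such a p, with 4.88% lower and 4.83% higher in NR-treated mice, so that the share among the members was near the background. Groups that did not overlap were found for 1.65% of all genes and for 0 of the 10 members. In DESeq2, Nr4a1 had an unadjusted p of 0.0313 (adjusted p = 0.417) and Fosb one of 0.0388 (adjusted p = 0.453), so that 2 of the 10 passed. Of the 33153 genes with a DESeq2 p, 6.58% passed. That set was not filtered on low counts, so its share is not on the same footing as the 9.71% in edgeR. The adjusted p of DESeq2 was at or below 0.05 for 102 genes, 0.52% of those with a value, and for 0 of the 10.

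The Nr4a1 difference was negative in all settings tried, between -1.16 and -0.65 when each mouse was left out in turn. Its unadjusted p in edgeR was 0.105 without non-treated mouse 4 and 0.0816 without non-treated mouse 5, the mice with the highest levels, and lay between 0.0507 and 0.0764 without NR-treated mouse 1, 2, 3 or 4. It was 0.0146 without NR-treated mouse 5 and 0.00628 without non-treated mouse 1. Non-treated mice 3 and 4 were also the libraries with the highest cochlear markers. Of 14 such markers, among them Coch, which was the most abundant, Otoa, Kcnj10, Tectb and Tecta, all 14 had a lower fitted level with NR, 6 of them at an unadjusted p of 0.05, with a median log2 fold change of -0.55 against -0.01 for all genes. Their summed level ran from 2909 to 4629 CPM in NR-treated mice and from 2914 to 5804 CPM in non-treated mice, and none was at 0 in any library. Without non-treated mice 3 and 4, left out after their markers were seen, the Nr4a1 log2 fold change was -0.70 (edgeR unadjusted p = 0.117), and Npas4 was then the 1 gene of the 10 at an unadjusted p of 0.05. Fewer cells of a type and less RNA per cell cannot be told apart in RNA from whole tissue.

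**Figure D2:**
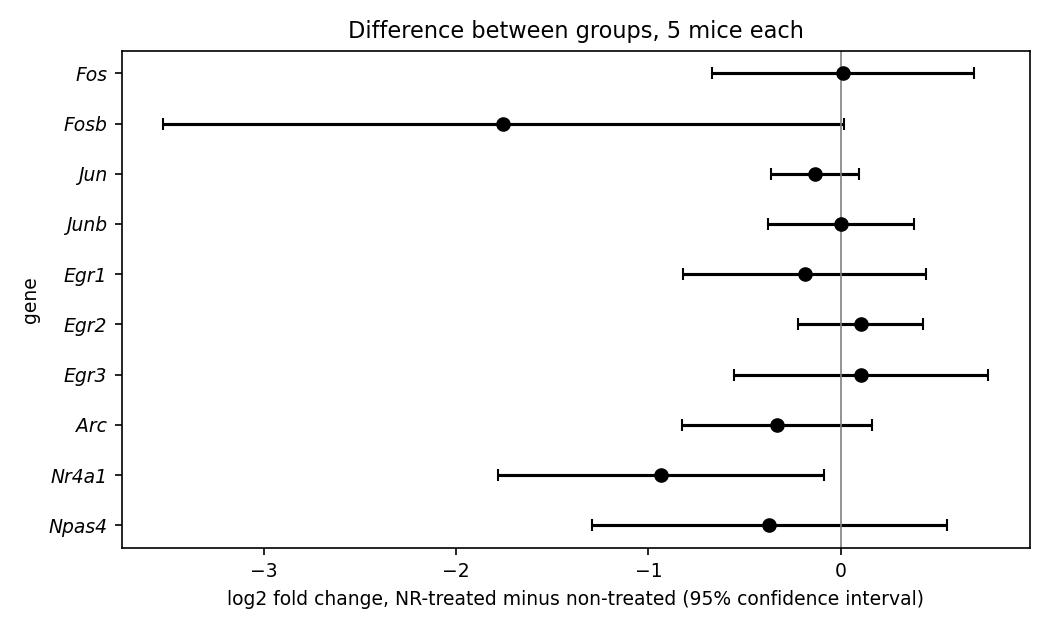
Log2 fold change of each immediate early gene, NR-treated minus non-treated, with points at the edgeR estimate and bars for its 95% confidence interval, from 5 mice per group. The interval of Nr4a1, from -1.78 to -0.09, leaves out 0, that of Fosb reaches 0.02, and the other 8 span 0 on both sides.

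Taken as a list, 4 of the 10 genes had a fitted log2 fold change above 0 and 6 below, with a median of -0.16 against -0.01 for all tested genes. The spread among mice of the same group was large for most of them. The median SD of log2 CPM within groups was 0.51 for the 10 genes and 0.20 for all tested genes. The biological coefficient of variation (BCV), which edgeR estimates per gene and which leaves out counting error, was 0.81 for Fosb, 0.45 for Npas4, 0.42 for Nr4a1, 0.35 for Fos, 0.34 for Egr3 and 0.32 for Egr1, against a common value of 0.21. Arc at 0.25, Junb at 0.20, Egr2 at 0.17 and Jun at 0.13 varied less. Among genes within 0.5 log2 CPM of the same abundance, Nr4a1 was at the 99.1st percentile of BCV, Fosb at the 97.9th, Egr1 at the 96.9th, Junb at the 90th, and the lowest was Arc at the 57.3rd. The other 5 lay between the 80.3rd and the 89.5th percentile, so that all 10 were more variable than the median gene of like abundance in these 10 libraries.

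The question then was whether the same mice were high for all 10 genes. Over the 45 pairs of genes, the correlation of log2 CPM across the 10 mice was above 0 for 31, with a median Pearson r of 0.20 and a range from -0.42 to 0.87. After Benjamini-Hochberg adjustment over the 45 pairs, 0 passed 0.05 by Pearson or by Spearman, and 4 and 5 had an unadjusted permutation p at or below 0.05. Fos and Junb had r = 0.865 (permutation p = 0.00152, adjusted p = 0.061) and rho = 0.758 (permutation p = 0.0149, adjusted p = 0.224). Without the 2 mice farthest from the median of Fos, r was 0.627, and it was 0.867 after the group means had been removed. NR-treated mouse 1, high for both, and NR-treated mouse 2, low for both, thus carry part of this relation. Egr1 and Nr4a1 had r = 0.835 (permutation p = 0.00271, adjusted p = 0.061) and rho = 0.867 (permutation p = 0.00212, adjusted p = 0.0954), with r = 0.789 without the 2 farthest mice and 0.889 with group means removed. Non-treated mice 4 and 5 and NR-treated mouse 5 were high for both genes. Egr2 and Npas4 had r = 0.746 (permutation p = 0.0135, adjusted p = 0.202) and rho = 0.636 (permutation p = 0.055, adjusted p = 0.412), with r = 0.459 without the 2 farthest mice. Jun and Junb had r = 0.659 (permutation p = 0.035, adjusted p = 0.394) and rho = 0.818 (permutation p = 0.00603, adjusted p = 0.136), with r = 0.682 without the 2 farthest mice.

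**Figure D3:**
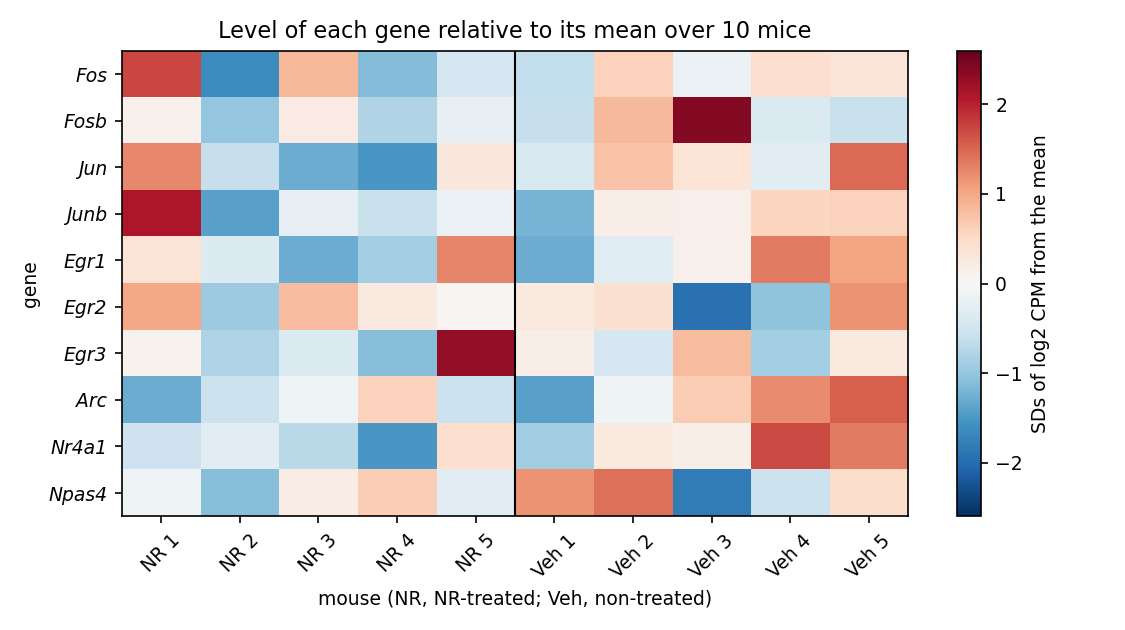
Level of each immediate early gene in each mouse, as SDs of log2 CPM from the gene's mean over the 10 mice, with NR-treated mice on the left and non-treated mice on the right of the black line. NR-treated mouse 1 is high for Fos, Jun and Junb but not for Arc or Nr4a1, non-treated mice 4 and 5 are high for Egr1, Arc and Nr4a1, and non-treated mouse 3 is high for Fosb and low for Egr2 and Npas4.

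NR-treated mouse 2 was below the mean of the 10 mice for all 10 genes, and no mouse was above it for all 10. The mean of the 10 standardized levels ran from -0.87 in NR-treated mouse 2 to 0.76 in non-treated mouse 5. It was 0.47, -0.87, -0.19, -0.60 and 0.27 in NR-treated mice 1 to 5 and -0.49, 0.36, 0.07, 0.22 and 0.76 in non-treated mice 1 to 5, so the groups overlapped. Among 16554 other genes with a mean of at least 1 CPM, those closest to this mean over the 10 mice were Spata5l1 (r = 0.934, rho = 0.964), Dctd (r = 0.917, rho = 0.903), Smpdl3b (r = 0.902, rho = 0.927) and Cebpb (r = 0.894, rho = 0.939). Next came Klf2 (r = 0.880, rho = 0.879), Ptgs2 (r = 0.879, rho = 0.758), Nt5dc2 (r = 0.871, rho = 0.830) and Tspan4 (r = 0.862, rho = 0.685). Cebpb, Klf2 and Ptgs2, which encode an inflammatory transcription factor, a shear stress factor and cyclooxygenase-2, are early response genes themselves. Picked as the closest of so many genes, these values are descriptions and have no p.

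The same search with Nr4a1 alone, added after its values were seen, gave Dusp1 (r = 0.970, rho = 0.939), Unkl (r = 0.953, rho = 0.976), Tob2 (r = 0.918, rho = 0.939) and Gga2 (r = 0.908, rho = 0.830) over the 10 mice. Ptgs2 (r = 0.907, rho = 0.915), Nfic (r = 0.904, rho = 0.903), Usp2 (r = 0.893, rho = 0.842) and Coq10b (r = 0.892, rho = 0.891) followed. Dusp1, a phosphatase that switches off the kinases upstream of these genes, had 55.8, 54.5, 54.9, 48.3 and 65.9 CPM in NR-treated mice and 46.7, 66.4, 62.4, 98.5 and 91.7 CPM in non-treated mice. The same mice, non-treated 4 and 5, were thus the highest for Dusp1 as for Nr4a1, and non-treated mouse 1 was the lowest. Its log2 fold change was -0.39 with a standard error of 0.18 (edgeR unadjusted p = 0.0540, adjusted p = 0.519).

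The level of Fos across mice was set against the mean log2 CPM of 14 gene lists, 6 of related pathways and 8 of cell types. Macrophage markers had the highest correlation with Fos (r = 0.855, permutation p = 0.00188, p adjusted over the 14 lists = 0.0263), with rho = 0.782 (permutation p = 0.0103, adjusted p = 0.0762). It was the 1 list of 14 with an adjusted p at or below 0.05 by Pearson, and by Spearman 0 of 14 had one. Without the 2 mice farthest from the median of Fos, r was 0.539, so that the relation rests in part on NR-treated mice 1 and 2, which had the highest and the lowest summed macrophage markers, 582 and 206 CPM. The non-treated mice ran from 269 to 363 CPM, none of the 8 markers was at 0 in any library, and all 8 had a fitted change above 0 with a median log2 fold change of 0.18, but 0 of them passed an unadjusted p of 0.05. C1qa, the most abundant, stood at 96.4 ± 39.1 CPM (SD, n = 5) with NR and 87.8 ± 14.98 CPM (SD, n = 5) without. The correlation of Fos with macrophage markers had an adjusted p of 0.184 without NR-treated mouse 1, 0.150 without NR-treated mouse 2 and 0.0512 without non-treated mouse 2 (permutation tests over the other 9 mice). Early response and feedback genes had r = 0.780 with Fos (permutation p = 0.00808, adjusted p = 0.0566) and rho = 0.782 (permutation p = 0.0109, adjusted p = 0.0762), with r = 0.555 without the 2 farthest mice. Schwann cell markers had r = 0.701 (permutation p = 0.0249, adjusted p = 0.116) and rho = 0.673 (permutation p = 0.0393, adjusted p = 0.184), with r = 0.535 without them. The other AP-1 genes had r = 0.651 (permutation p = 0.0421, adjusted p = 0.148) and rho = 0.624 (permutation p = 0.0628, adjusted p = 0.220), and r was 0.104 without them.

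**Figure D4:**
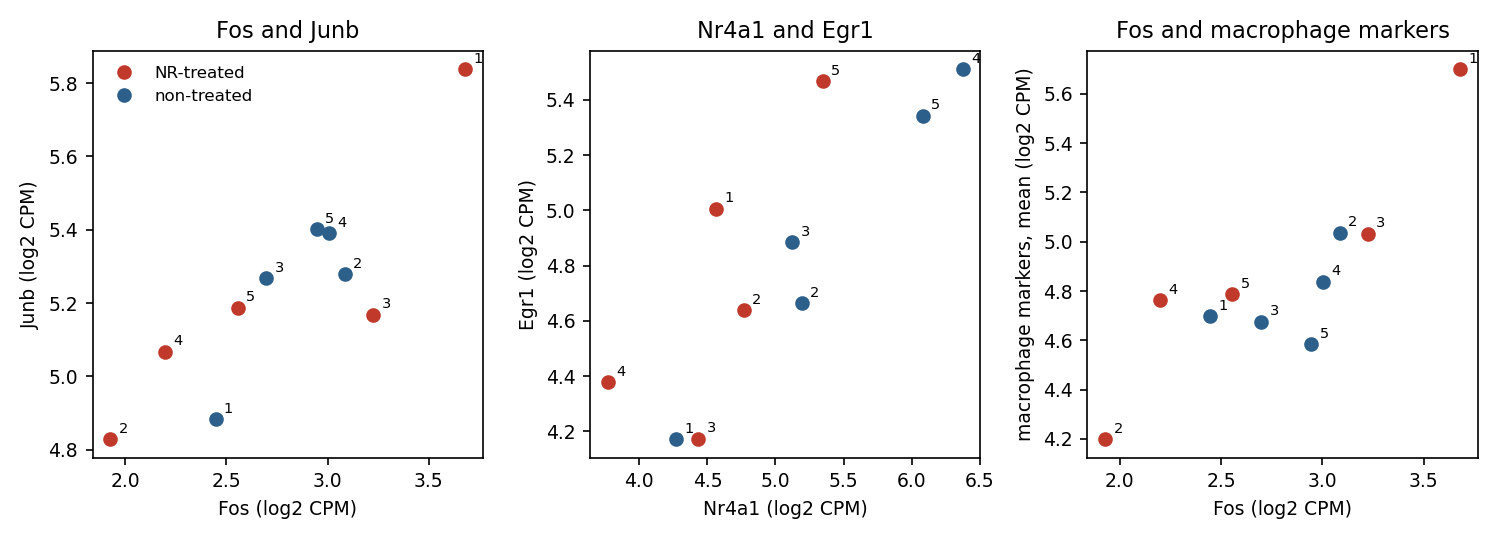
Log2 CPM of pairs of measures in the 10 mice, numbered by replicate, with NR-treated mice in red and non-treated mice in blue: Fos and Junb (r = 0.865), Nr4a1 and Egr1 (r = 0.835), and Fos and the mean of 8 macrophage markers (r = 0.855). NR-treated mice 1 and 2 lie at the ends of the left and right panels, and non-treated mice 4 and 5 with NR-treated mouse 5 lie at the upper end of the middle panel.

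Around the 10 genes stand the kinases and factors that switch them on, the other early genes induced with them, and the later genes they act on. Of 107 such genes in 6 lists, 106 were tested. At an unadjusted p of 0.05 in edgeR, 6 had a higher and 7 a lower level in NR-treated mice, 12.3% together against 9.71% of all genes, and 0 passed after adjustment. In DESeq2, 2 of them, Dusp4 and Scg2, had an adjusted p at or below 0.05, against 0.52% of all genes with a value.

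Of 25 upstream regulators, which included Srf, Creb1, Elk and Mef2 factors and the ERK kinases, 11 had a fitted change above 0 and 14 below, with a median log2 fold change of -0.01. Rps6ka1, a kinase that phosphorylates CREB and SRF, was at 82.1 ± 3.04 CPM (SD, n = 5) with NR and 87.8 ± 0.94 CPM (SD, n = 5) without, a log2 fold change of -0.10 with a standard error of 0.04 (edgeR adjusted p = 0.476). Map2k2, the kinase above ERK, was at 178 ± 2.86 CPM (SD, n = 5) with NR and 189 ± 4.04 CPM (SD, n = 5) without, a log2 fold change of -0.09 with a standard error of 0.04 (edgeR adjusted p = 0.497). For both genes every NR-treated mouse lay below every non-treated mouse, as for 0.878% of all genes. Mapk3, or ERK1, was the most abundant of the list at 290 ± 42.4 CPM and 255 ± 26.0 CPM (SD, n = 5 each), with a log2 fold change of 0.18 and a 95% interval from -0.05 to 0.42.

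Among 12 other AP-1 genes, 6 had a fitted change above 0 and 6 below, with a median log2 fold change of 0.00. Mafk, a small MAF protein, was the 1 gene of the list at an unadjusted p of 0.05, with a log2 fold change of -0.20 and a standard error of 0.09 (edgeR adjusted p = 0.499). Mafg, the most abundant, stood at 177 ± 11.5 CPM and 173 ± 10.7 CPM (SD, n = 5 each).

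Of the other EGR, NR4A and KLF genes, 9 of 10 were tested, since Egr4 had 17 reads in all libraries together. Nr4a3, a close relative of Nr4a1, was the 1 gene at an unadjusted p of 0.05. NR-treated mice 1 to 5 had 2.02, 3.13, 2.34, 1.27 and 2.37 CPM of Nr4a3, and non-treated mice 1.44, 4.98, 9.23, 5.11 and 4.13 CPM. Non-treated mice 2 to 5 lay above every NR-treated mouse, and non-treated mouse 1, also the lowest non-treated mouse for Nr4a1, lay among the lowest. Its fitted log2 fold change was -1.16 with a standard error of 0.40 and a 95% interval from -2.05 to -0.28 (edgeR unadjusted p = 0.0149, adjusted p = 0.452). The third receptor of the family, Nr4a2, stood at 11.3 ± 3.10 CPM with NR and 13.9 ± 5.11 CPM without (SD, n = 5 each), with a log2 fold change of -0.30 and a 95% interval from -0.89 to 0.29. The list as a whole had 4 fitted changes above 0 and 5 below, with a median of -0.12. Its most abundant gene was Klf9, a glucocorticoid-responsive factor, with 96.8 ± 15.5 CPM and 114 ± 15.6 CPM (SD, n = 5 each).

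Of 38 other early response and feedback genes, 27 had a fitted log2 fold change below 0 and 11 above, with a median of -0.08, and 3 were lower and 1 was higher at an unadjusted p of 0.05. Dusp4, a nuclear phosphatase that inactivates ERK, had 10.6, 13.2, 13.1, 14.7 and 15.1 CPM in NR-treated mice 1 to 5 and 15.5, 20.02, 20.1, 27.4 and 22.9 CPM in non-treated mice 1 to 5. All NR-treated mice lay below all non-treated mice, though the highest of the former and the lowest of the latter were close. The log2 fold change of Dusp4 was -0.67 with a standard error of 0.15 (edgeR unadjusted p = 0.000898, adjusted p = 0.370), while its DESeq2 adjusted p was 0.0122. Ier5l stood at 18.2 ± 1.94 CPM with NR and 22.0 ± 1.67 CPM without (SD, n = 5 each), a log2 fold change of -0.28 (edgeR adjusted p = 0.434). Sgk1, a kinase that raises ion channel activity and is induced by glucocorticoids, stood at 152 ± 17.4 CPM and 186 ± 28.6 CPM (SD, n = 5 each), a log2 fold change of -0.29 (edgeR adjusted p = 0.476). Plk2, an activity-induced kinase of synapses, was the higher gene, at 23.3 ± 6.34 CPM and 15.8 ± 4.37 CPM (SD, n = 5 each), a log2 fold change of 0.56 (edgeR adjusted p = 0.476). Rhob, the most abundant of the list, stood at 188 ± 19.9 CPM and 178 ± 9.81 CPM (SD, n = 5 each).

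The later neuronal genes lay in the other direction. Of 10, 8 had a fitted change above 0 and 2 below, at a median log2 fold change of 0.17, and 3 were higher and 0 lower at an unadjusted p of 0.05. Scg2, which encodes secretogranin II of neuropeptide vesicles, had 10.5, 7.52, 13.2, 10.0 and 12.8 CPM in NR-treated mice 1 to 5 and 9.04, 3.55, 4.13, 4.89 and 5.67 CPM in non-treated mice 1 to 5. Non-treated mouse 1 lay above NR-treated mouse 2, and otherwise the groups were apart. This gave a log2 fold change of 0.99 with a standard error of 0.25 (edgeR unadjusted p = 0.0023, adjusted p = 0.408), while its DESeq2 adjusted p was 0.0244. Pcsk1, the prohormone convertase that cleaves such precursors, stood at 6.89 ± 2.32 CPM with NR and 3.33 ± 2.21 CPM without (SD, n = 5 each), a log2 fold change of 1.05 with a standard error of 0.41 (edgeR adjusted p = 0.476). Nptx2, a pentraxin secreted at excitatory synapses, stood at 18.2 ± 4.61 CPM and 11.3 ± 4.73 CPM (SD, n = 5 each), a log2 fold change of 0.69 with a standard error of 0.31 (edgeR adjusted p = 0.511). Bdnf, the neurotrophin best known as a target of Npas4, had a log2 fold change of -0.50 with a 95% interval from -1.06 to 0.06. Rgs4, the most abundant of the list, had a log2 fold change of -0.09 with a 95% interval from -0.52 to 0.34.

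Markers of spiral ganglion neurons lay in the same direction as these late genes. Of 12, 8 had a fitted change above 0 and 4 below, at a median log2 fold change of 0.21, and Tubb3, Pou4f1 and Rbfox3 were higher at an unadjusted p of 0.05. Their summed level ran from 6072 to 6879 CPM in NR-treated mice and from 4923 to 7407 CPM in non-treated mice, with none at 0, and Calb2 was the most abundant. What part the share of neuronal RNA has in the values of Scg2, Pcsk1 and Nptx2 was not tested.

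Heat shock genes, which respond to protein damage and to handling, included 9 of 12 with a fitted change above 0, with a median log2 fold change of 0.07. Hspa8, the constitutive chaperone of the HSP70 family and the most abundant of the list, stood at 1037 ± 57.2 CPM with NR and 890 ± 71.5 CPM without (SD, n = 5 each), a log2 fold change of 0.22 with a standard error of 0.07 (edgeR adjusted p = 0.436). Its co-chaperone Dnaja1 stood at 199 ± 14.6 CPM and 180 ± 4.15 CPM (SD, n = 5 each), a log2 fold change of 0.14 with a standard error of 0.05 (edgeR adjusted p = 0.476).

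**Figure D5:**
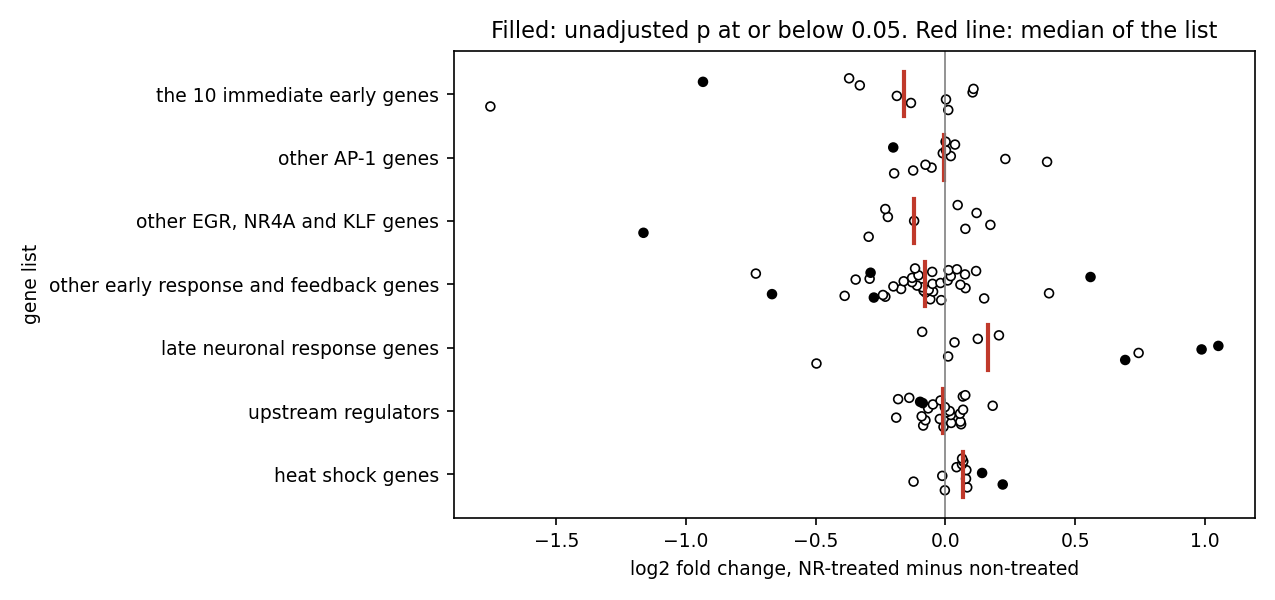
Log2 fold change, NR-treated minus non-treated, of the 10 immediate early genes and of the tested genes of 6 related lists, with 1 circle per gene, filled where the unadjusted edgeR p is at or below 0.05, and a red line at each list's median. The medians run from -0.16 for the 10 genes to 0.17 for late neuronal genes, and most circles lie close to 0.

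The libraries also differed in markers of other cell types, and the source of these transcripts was not tested. Between 17060379 and 24419230 reads were counted per library. The difference in mean total between the groups was not unusual among relabelings of the mice (exact two-sided permutation test over 252 labelings, p = 0.357, with 0.00794 the smallest it can give). All 7 tested skeletal muscle markers, led by Acta1, had a fitted change above 0, 6 of them at an unadjusted p of 0.05, with sums of 11.2 to 850 CPM in NR-treated and 8.96 to 73.4 CPM in non-treated mice, and NR-treated mice 3 and 5 were the highest. All 7 tested adipocyte markers, of which Fabp4 was the most abundant, also had one, 5 at an unadjusted p of 0.05, with sums of 99.7 to 265 CPM and 53.9 to 88.5 CPM. Of 8 endothelial markers, Egfl7 and Pecam1 were higher and 0 lower, and of 12 marrow and blood markers, led by Hbb-bs, 0 were higher and 0 lower, at the same p. None of these markers passed after adjustment in edgeR, while Acta1, Egfl7 and the adipocyte genes Plin1, Cidec, Cfd and Pck1 had a DESeq2 adjusted p at or below 0.05. Without NR-treated mice 3 and 5, left out after their markers were seen, Nr4a1 had a log2 fold change of -1.16 (edgeR unadjusted p = 0.0328) and Egr3 one of -0.29.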

How the data were processed

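RNA-seq of the cochlea was used, with 1 library from each of 5 NR-treated and 5 non-treated mice. The authors deposited raw read counts per gene, without normalization. Per the submitters' processing notes and the study's methods, reads were filtered with fastp, aligned to mm10 with STAR 2.6.1d and counted with featureCounts 1.5.0 in its default mode, which ignores strand. The annotation release is not given in the sources used here, and the 10 genes were found by symbol. TPM was computed from the counts and the gene lengths in the files.

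The 10 genes and all lists were chosen with earlier results of these data known. Counts were tested with edgeR 4.0.16 in R 4.3.3 (filterByExpr, TMM, glmQLFit and glmQLFTest, 2 groups, no covariate), fitted on all 18329 genes that passed, and p-values were adjusted by Benjamini-Hochberg over all of them. CPM values are scaled by TMM, and log2 CPM has a prior count of 2. The script was tested on simulated data. Total counts of 17060379 to 24419230 per library leave counting error large only for the lowest genes. No pair of libraries agreed within sampling noise. Each library is from 1 mouse, and nothing says which mice shared a litter or cage.

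Correlations used 100000 permutations over the 10 mice. No technical batch is named in the labels, so none could be split. Named genes are the 10, the genes of each list at an unadjusted p of 0.05 (at most 4) with its most abundant gene, and the 8 genes most like the mean of the 10. Srf, Creb1, Nr4a2, Dusp1, Bdnf, Hspa1a and Hspa1b were named after their values were seen. Alternatives were DESeq2 1.42.0, its size factors in edgeR, other filters, a block for the replicate number, a robust dispersion, another prior count, and leaving out each mouse. Leaving out pairs of libraries with high muscle or cochlear markers, and the search for genes like Nr4a1, were chosen after seeing the data.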

Additional observations from a re-analysis of the deposited data

Results flagged for a closer look

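In 3 of the 20 combinations of a gene and a group, 1 mouse stood apart from the other 4 by Dixon's test, in which the gap to the nearest mouse is divided by the group's range and set against 0.71 for groups of 5. For normally spread values, chance gives such a mouse in about 1 of 20 groups. The test was run on CPM and not on log2 CPM, so the 3 of 20 cannot be read against that share. Non-treated mouse 3 had 15.82 CPM of Fosb, where the next non-treated mouse had 3.77. NR-treated mouse 1 had 57.1 CPM of Junb, where the next had 36.4, and it was also the highest for Fos. NR-treated mouse 5 had 13.49 CPM of Egr3, where the next had 6.51. The 3 values belong to 3 different mice, and their cause was not tested.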

How the results depend on the processing

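Over 180 combinations of 1 of the 10 genes with another setting, 167 kept the sign of the log2 fold change, with no gene passing an adjusted p of 0.05, and 13 changed sign, all of them for Fos, Junb, Egr1, Egr2 or Egr3, whose main values were close to 0. With each mouse left out in turn, Fos ran from -0.29 to 0.18, Junb from -0.18 to 0.10 and Egr3 from -0.26 to 0.24, with Fos below 0 without NR-treated mouse 1 or 3 or non-treated mouse 1 or 3 and Junb below 0 without NR-treated mouse 1 or non-treated mouse 1. Single omissions gave 669 to 1414 genes higher and 484 to 1059 lower at an unadjusted p of 0.05, 0 to 1 genes at an adjusted p of 0.05, 0 to 3 of the 10 genes and 3 to 10 pathway genes higher and 3 to 12 lower at an unadjusted p, 0 to 1 correlated pairs, and 0 to 3 lists correlated with Fos. DESeq2 gave 102 genes at an adjusted p of 0.05 where edgeR gave 0 (1780 at an unadjusted p), with Dusp4 and Scg2 among the pathway genes, and 2 of the 10 genes at an unadjusted p. Without a filter, 1414 genes were higher and 2 of the 10 passed. With at least 1 CPM in 5 libraries, 4 pathway genes were lower. Removing group means gave 2 correlated pairs and 3 lists correlated with Fos.

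Same-numbered mice of the groups did not clearly deviate together (correlations from -0.22 to 0.17, with 2 of 5 above 0.1). Of 10 libraries, 2 were closest to their own number. Pairing by number was thus not seen, but 5 such correlations cannot exclude it. With the replicate block, 0 of the 10 genes had an unadjusted p of 0.05 (edgeR unadjusted p = 0.0656 for Nr4a1, at a log2 fold change of -0.81), and Fos was at -0.12 and Junb at -0.033.

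Without NR-treated mice 3 and 5, 460 genes were higher and 383 lower, 2 and 3 pathway genes were higher and lower, Fos was at -0.024 and Egr3 at -0.29, and 3 lists correlated with Fos. Without non-treated mice 3 and 4, 4 pathway genes were lower, Egr1 was at 0.0031 and Egr2 at -0.084, Npas4 was at -0.83 (edgeR unadjusted p = 0.0202) in place of -0.37, Nr4a1 no longer passed an unadjusted p of 0.05, and 0 lists correlated with Fos. Both subsets were chosen after seeing the data, they leave 8 libraries, and the cause of these shifts was not tested. Depth limits Npas4, with 18 to 91 reads, and Fosb, with 14 to 391.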
